A study of Mus musculus with 15 samples.

Results

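The authors deposited a list of cocaine-specific and a list of saline-specific 5hmC enhancer intervals of the mouse nucleus accumbens, and at 385 loci on chromosomes 1 to 19 the lists placed an interval of each kind side by side. An interval was taken where its start or end lay within 1000 bp of an interval of the other list, counted as the start of the later interval minus the end of the earlier one. On the 200 bp grid of the lists this left at most 800 bp between the intervals of a pair. The rule found 385 of the 10575 cocaine-specific and 386 of the 10555 saline-specific intervals, 771 in all, which formed 386 pairs. These were 3.69% of the 10434 cocaine-specific and 3.70% of the 10432 saline-specific intervals on chromosomes 1 to 19. A further 2 pairs on chromosome X lay outside the rule. The rule used positions in the lists only and no read count. The lists are named for the treatments, and how the authors made them is not stated in any source used here.

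The nucleus accumbens, in the ventral striatum, receives dopamine input that cocaine raises. Samples came from C57BL/6 mice that had received cocaine at 20 mg/kg in 7 daily ip injections, or saline. Going by the series title, the question concerned Tet1 and 5hmC in the action of cocaine. DNA bearing 5hmC was captured and sequenced in 3 libraries per treatment, and chromatin bearing H3K27ac was sequenced in 3 libraries per treatment with 1 input library per treatment. The treatment text in the labels describes cocaine injections for the saline libraries too, so groups were taken from the source and treatment labels. Age and sex were not given, and nothing in the labels ties a library to an animal. The p-values below therefore rest on the spread between libraries, part or all of which may be technical. In the H3K27ac test that spread came, for most regions, from a trend over all regions and not from the region's own libraries. The tissue is a mixture of neurons and glia, so a change in a mark per cell and a change in the share of a cell type cannot be told apart.

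5-Hydroxymethylcytosine (5hmC) is made from 5-methylcytosine by the Tet family of dioxygenases. It is abundant in neurons and is often found over gene bodies and at enhancers, where it can mark sites undergoing active demethylation. H3K27ac is acetylation of histone H3 at lysine 27, deposited by the acetyltransferases CBP and p300, and it marks active enhancers and promoters. An enhancer often spans several nucleosomes, so neighbouring short intervals can fall on the same element. All positions are in mm9, and neither sequences nor genes at the intervals were analysed here.

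The opposed intervals were close but never shared a base. Of the 386 pairs, 93 touched, with no base between them. A gap of 200 bp separated 58 pairs, 400 bp separated 85, 600 bp separated 71 and 800 bp separated 79. Contact was the most frequent of these gaps, and the others each held at least 58 pairs. The median gap was 400 bp. The lists held no shared base anywhere (0 pairs), so no enhancer interval was assigned to both treatments. Within each list the smallest gap between neighbours was 1600 bp, so every short gap seen here separated a cocaine-specific from a saline-specific interval.

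Distances just beyond the limit held as many pairs. The mean number of pairs per 200 bp step was 77.2 for gaps of 0 to 800 bp and 82.2 for gaps of 1000 to 1800 bp. It was 54.8 for gaps of 2000 to 2800 bp, 62.6 for gaps of 3000 to 3800 bp and 52 for gaps of 4000 to 4800 bp. The limit of 1000 bp therefore cut through a range in which neighbours were about equally frequent. Just inside it, at 800 bp, 69.6% of the cocaine-specific and 75.9% of the saline-specific intervals of 79 pairs were 200 bp long. Just outside it, at 1000 bp, these shares were 80.2% and 75.6% of 86 pairs. No region of the authors' deposited 5hmC table overlapped a pair just inside (0), and 3 overlapped a pair just outside.

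**Figure D1:**
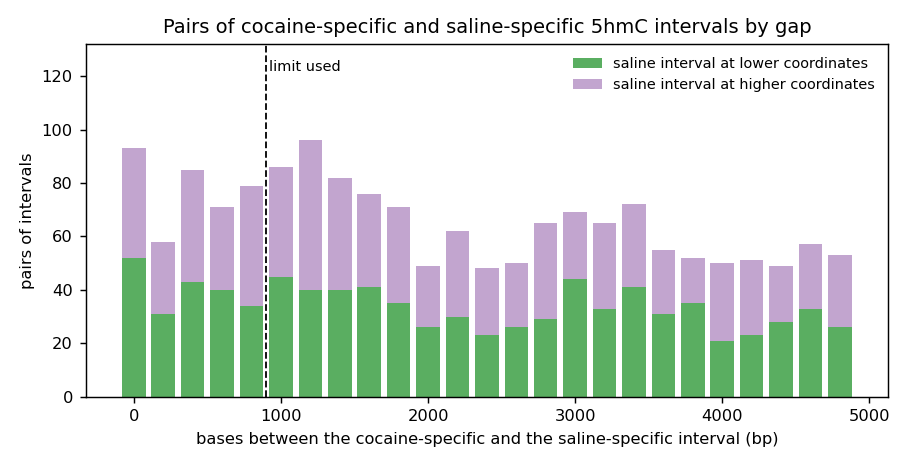
Number of pairs of a cocaine-specific and a saline-specific interval (vertical axis) by the bases between them in bp (horizontal axis), split by the side on which the saline-specific interval lay. The dashed line is the limit used; the 93 touching pairs stand at 0, and the steps from 1000 to 1800 bp hold as many pairs as those from 0 to 800 bp.

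Neither treatment held a fixed side of the pair. The saline-specific interval lay at lower coordinates in 200 pairs and at higher coordinates in 186. Among the touching pairs the split was 52 and 41. Because strand and genes were not used, a lower coordinate does not mean upstream.

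Most neighbours were single grid steps. Both intervals were 200 bp long in 255 of the 386 pairs (66.1%). This was the case in 76 of the 93 touching pairs (81.7%) and in 179 of the 293 pairs with a gap (61.1%). Of the neighbouring cocaine-specific intervals, 79.5% (306 of 385) were 200 bp long, against 72.1% of the 10049 other cocaine-specific intervals. Of the neighbouring saline-specific intervals, 80.8% (312 of 386) were 200 bp long, against 74.0% of the 10046 others. The neighbouring intervals were thus more often of the minimum length in both lists. This did not hold at every gap within the limit, nor only within it. At 800 bp the shares were 69.6% of the cocaine-specific and 75.9% of the saline-specific intervals. Just outside, at 1000 bp, they were 80.2% and 75.6%. Intervals of at least 1000 bp made up 5.19% of the neighbouring and 5.40% of the other cocaine-specific intervals, and 3.37% and 5.11% of the saline-specific ones. The lists carry no replicates, so these shares are descriptions with no test.

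Where a pair was unequal, the longer interval could belong to either treatment. The cocaine-specific interval was longer in 64 pairs and the saline-specific interval in 55. Both exceeded 200 bp in 23 pairs. In total the neighbouring cocaine-specific intervals covered 120.8 kb, with a mean length of 314 bp, and the saline-specific ones covered 108.6 kb, with a mean of 281 bp. The median span of a pair from its first to its last base was 1000 bp, and spans ran from 400 to 4200 bp.

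A few loci were much larger. The only cocaine-specific interval with a saline-specific neighbour on both sides lay at chr9:48799001-48802400. It was 3400 bp long, and a 200 bp saline-specific interval stood 400 bp away on each side, at chr9:48798401-48798600 and chr9:48802801-48803000. Here a long cocaine-specific stretch was bordered on either side by saline-specific ones. The longest neighbouring saline-specific interval was 2400 bp, at chr13:64359401-64361800. In 1 pair both intervals reached 1000 bp: the cocaine-specific and saline-specific intervals at chr5:37059801-37061400 and chr5:37062201-37064000 measured 1600 and 1800 bp and lay 800 bp apart. With a span of 4200 bp this was the widest pair.

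The pairs were scattered over the genome. The median distance from a locus to the nearest other locus was 1407.4 kb. Another locus lay within 100 kb of 32 loci, within 50 kb of 22 and within 10 kb of 2. Those 2 lay on chromosome 3, at chr3:34727801-34728400 and chr3:34736601-34737600, with 8200 bp between them. The share of cocaine-specific intervals with a neighbour ran from 2.44% on chromosome 13 (11 of 450) to 4.89% on chromosome 17 (20 of 409), and chromosome 1 held the most pairs, 34. None of chromosomes 1 to 19 lacked pairs.

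The next comparison asked whether the 5hmC levels at the paired intervals differed in the direction of the list names. The authors' deposited 5hmC table lists 11748 regions chosen for a difference between cocaine and saline, of which 58.5% were higher and 41.5% lower after cocaine. Only 18 of its regions lay within 1000 bp of a neighbouring interval, 9 higher and 9 lower. A listed region lay on an interval itself in 10 of the 386 pairs (2.59%). All 4 regions that lay on a cocaine-specific interval alone were higher after cocaine, and all 4 on a saline-specific interval alone were lower. The 2 regions that crossed from one interval to the other were both lower. No source used here states whether the lists were made from the same libraries, so these directions are a description and not a second measurement. In no pair (0) did a higher region on the cocaine-specific interval meet a lower one on the saline-specific interval. Listed regions lay on only 1.56% of the neighbouring cocaine-specific and 1.55% of the saline-specific intervals. Few such pairs could therefore be found in any case, and the 0 says nothing of a shift in position.

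The values that follow are normalised read counts of single libraries, where 1 read was worth 0.896 to 1.23 and the regions held 0 to 34 reads per library. The median over the whole table was 5 to 7 reads per region and library. The order of the libraries is that of the table, which does not name them. The cocaine and saline values did not overlap in any of the 18 regions. This was so in 99.9% of the whole table, which was selected for it.

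Of the 4 regions on cocaine-specific intervals, the highest in cocaine was chr12:106486921-106487140. It held 18.25, 14.82 and 24.26 in the cocaine libraries and 7.17, 9.26 and 8.88 in the saline libraries, and covered 140 bp at the edge of an interval at chr12:106487001-106487800. Its saline-specific neighbour, chr12:106486401-106486600, ended 320 bp before the region. The lowest cocaine library was above the highest saline library.

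At chr17:78712801-78713120 the cocaine values were 18.25, 16.05 and 17.97 and the saline values 9.86, 8.24 and 1.97. One saline library was far below the others, while the cocaine libraries were close together. The region lay wholly inside the cocaine-specific interval chr17:78712801-78713200, 200 bp from its saline-specific neighbour.

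At chr10:88809261-88809560 the cocaine values were 14.41, 18.52 and 17.97 and the saline values 5.38, 7.21 and 5.92. This region too lay wholly inside its interval, chr10:88809201-88809600. A second higher region, chr10:88808941-88809140, stood between that interval and its saline-specific neighbour chr10:88808201-88808600, and held 8.65, 4.94 and 8.99 in cocaine and 0.9, 3.09 and 1.97 in saline. This was the only pair with more than 1 listed 5hmC region within 1000 bp, and both were higher after cocaine.

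The fourth region, chr2:172650981-172651180, held 10.57, 14.82 and 12.58 in cocaine and 7.17, 3.09 and 3.95 in saline. It covered 180 bp of the interval chr2:172651001-172651200 and lay 620 bp from the saline-specific neighbour. In the authors' deposited table the log2 fold change of each of the 4 regions on cocaine-specific intervals was 1.18 on chromosome 12, 1.38 on chromosome 17, 1.46 on chromosome 10 and 1.42 on chromosome 2.

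On saline-specific intervals the strongest signal was at chr1:182157301-182157600, which held 30.48, 32.94 and 24.67 in the saline libraries and 18.25, 16.05 and 11.68 in the cocaine libraries. It covered 100 bp of the interval chr1:182157201-182157400. This region had the highest saline values of the 18, and its log2 fold change in the authors' deposited table, -0.94, was the smallest of the 18 in size. The lowest saline library was above the highest cocaine library, and all 6 libraries held at least 13 reads.

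The other 3 held few reads in cocaine. The region chr19:57025221-57025440 held 1.92, 6.17 and 0.9 in cocaine and 11.65, 7.21 and 12.83 in saline, with the highest cocaine library close below the lowest saline library. It covered only 40 bp of its saline-specific interval, chr19:57025401-57025600.

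At chr16:10552501-10552700 the cocaine values were 4.8, 1.23 and 0.9 and the saline values 6.28, 10.29 and 9.87. Here the saline-specific interval chr16:10552601-10552800 touched the cocaine-specific interval chr16:10552801-10553000, and the region lay on the outer part of the saline-specific one. At chr3:59108041-59108240 a pair of cocaine libraries was listed at 0 and the third at 1.8, while the saline libraries held 5.38, 6.18 and 4.93. These correspond to 2 reads in the cocaine and 17 in the saline libraries together, and an empty library allows up to 3 reads, so no fold is given.

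The 2 regions that crossed both intervals of a touching pair lay on chromosomes 2 and 8. At chr2:60794181-60794380 the cocaine values were 6.73, 1.23 and 1.8 and the saline values 9.86, 12.35 and 12.83. The region covered 180 bp of the cocaine-specific interval chr2:60794201-60794400 and 20 bp of the saline-specific interval chr2:60794001-60794200. It was thus lower after cocaine although most of it lay on an interval of the cocaine-specific list. At chr8:83445761-83446000 the cocaine values were 3.84, 2.47 and 8.09 and the saline values 11.65, 12.35 and 18.75, and here 200 bp lay on the saline-specific and 40 bp on the cocaine-specific interval. The authors' deposited table gave them log2 fold changes of -1.84 and -1.57.

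**Figure D2:**
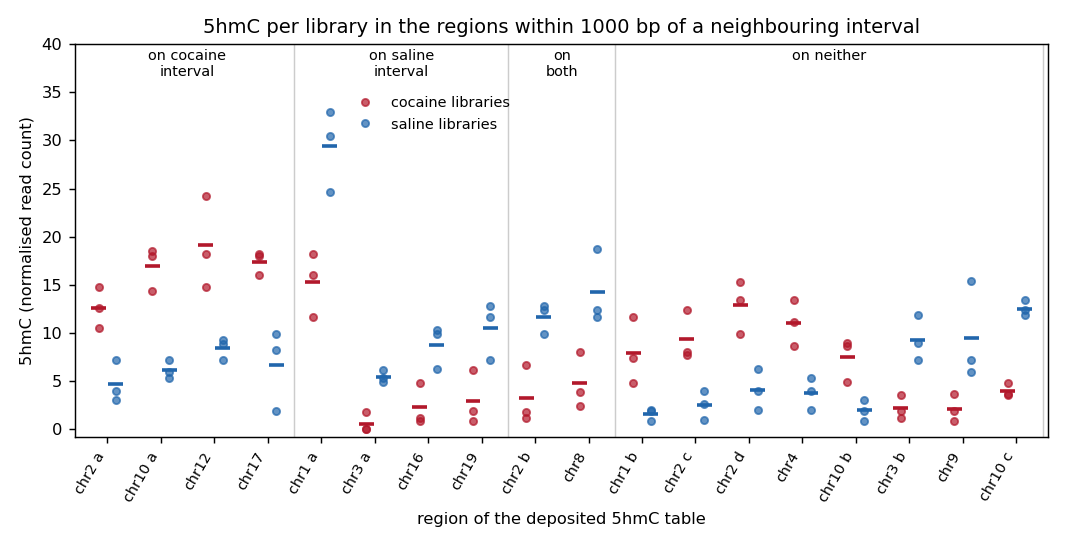
Normalised 5hmC read counts (vertical axis) of each cocaine and saline library in the 18 listed regions within 1000 bp of a neighbouring interval (horizontal axis), grouped by the interval they lay on; points are libraries and bars are group means, n = 3. The groups are apart in every region, with cocaine above saline in the 4 regions on cocaine-specific intervals and below it in the 4 on saline-specific intervals and the 2 on both.

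The remaining 8 regions lay beside an interval without touching a base of it. Of these, 5 were higher and 3 lower after cocaine, and 6 had the direction of the nearer list. The exceptions were chr1:174364821-174365020, which was higher after cocaine 20 bp from a saline-specific interval, and chr3:68433181-68433400, which was lower 800 bp from a cocaine-specific interval. The first held 4.8, 7.41 and 11.68 in cocaine and 0.9, 2.06 and 1.97 in saline. The second held 1.92, 1.23 and 3.59 in cocaine and 8.96, 7.21 and 11.84 in saline. Proximity to an interval thus did not fix the direction of the change.

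**Figure D3:**
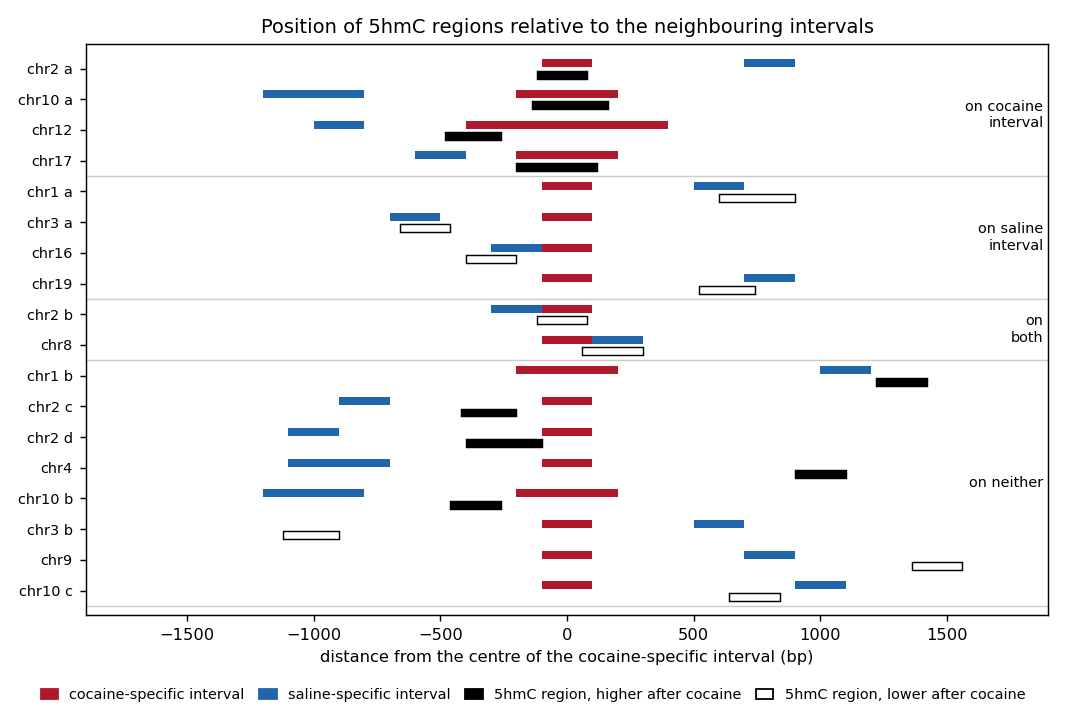
Position in bp, from the centre of the cocaine-specific interval (horizontal axis), of each of the 18 listed 5hmC regions and of the intervals beside it, 1 locus per line and drawn to scale in the order of the plot of normalised 5hmC counts. Filled regions were higher and open regions lower after cocaine; regions on both intervals occur only where the intervals touch.

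Across the 18 regions the size of the difference was below that of the table. The 9 higher regions had a median log2 fold change of 1.55 in the authors' deposited table, with a range of 1.18 to 2.28, beside 2.01 for all its higher regions. The median of the 9 lower regions was -1.84 in the authors' deposited table, beside -2.08. Their levels were above the table's: the median cocaine mean of the higher regions was 12.7 normalised counts, beside 9 in the table, and the median saline mean of the lower regions was 10.6, beside 8.98. The authors' deposited table gave the 18 an adjusted p of 0.137 to 0.149, none of them below 0.05. Only 4 regions (0.0340%) of the authors' deposited table, out of 11748, were below 0.05.

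Neighbouring intervals overlapped listed 5hmC regions at shares close to those of the rest of the lists, and lay near them somewhat more often. A region overlapped 1.56% of the neighbouring and 1.72% of the other cocaine-specific intervals, and 1.55% and 1.23% of the saline-specific ones. The median distance to the nearest listed 5hmC region was 42.6 kb for the neighbouring and 43.8 kb for the other cocaine-specific intervals. It was 42.4 kb and 41.2 kb for the saline-specific ones. The other cocaine-specific intervals met 173 regions, of which 88.4% were higher, and the other saline-specific intervals met 125, of which 29.6% were higher. Of the 6 regions on neighbouring cocaine-specific intervals 4 were higher, and of the 6 on neighbouring saline-specific intervals 0 were. Of the regions within 1000 bp, 50% were higher for neighbouring intervals of either list. For the other intervals this was 77.1% in the cocaine-specific and 41.9% in the saline-specific list. The differences between these shares were not tested.

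Pairs with a higher region near the cocaine-specific and a lower region near the saline-specific interval appeared only at larger distances, with 0 such pairs within 1000 bp. At 1000 bp few could be found in any case, since few neighbouring intervals had a listed region that near. Within 5000 bp, 48 listed regions lay near a neighbouring interval, 26 higher (54.2%) and 22 lower, and 2 pairs had both a higher region near the cocaine-specific and a lower region near the saline-specific interval. One was the pair chr1:137701201-137701400 and chr1:137702001-137702200. The higher region, chr1:137696461-137696660, held 11.53, 16.05 and 11.68 in cocaine and 8.07, 3.09 and 0.99 in saline, 4540 bp away. The lower region, chr1:137698641-137698860, held 0.96, 4.94 and 6.29 in cocaine and 10.76, 12.35 and 12.83 in saline. It lay 3140 bp from the saline-specific interval and was nearer to the cocaine-specific one. Both regions lay on the same side of the pair, at lower coordinates, so they did not bracket it.

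The other was the pair chr3:137249001-137249200 and chr3:137250001-137250200. A higher region, chr3:137244141-137244360, lay 4640 bp before the cocaine-specific interval and held 4.8, 4.94 and 5.39 in cocaine and 0.9, 0 and 0.99 in saline. A lower region, chr3:137252801-137253040, lay 2600 bp after the saline-specific interval and held 1.92, 0 and 1.8 in cocaine and 7.17, 7.21 and 5.92 in saline. This was the only locus where a higher and a lower region lay in the order of the pair, and the lower group of each region rested on a few reads.

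H3K27ac was examined as a mark of enhancer activity that the lists' names do not use. The H3K27ac table lists 49712 regions that passed the authors' caller, so the absence of a listed region does not show the absence of the mark. Few neighbouring intervals lay on a listed region, 5 of 385 cocaine-specific (1.30%) and 4 of 386 saline-specific (1.04%), beside 1.87% and 1.10% of the other intervals. The median distance to the nearest listed H3K27ac region was 22.4 kb and 22.2 kb, beside 20.4 kb and 19.95 kb. The enhancer label of the lists therefore had little overlap with this table, for neighbouring and other intervals alike.

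Within 1000 bp of a neighbouring interval lay 11 listed H3K27ac regions, of which 2 overlapped both intervals of a pair, 3 a cocaine-specific interval alone, 2 a saline-specific interval alone and 4 none. Over the whole table limma, with a mean-variance trend and Benjamini-Hochberg adjustment over all 49712 regions, called 13.0% at an adjusted p below 0.05, 3.42% higher and 9.62% lower after cocaine. It called 3 of the 11, 2 higher and 1 lower. The median log2 fold change was -0.02 over the 11 and -0.02 over the table. For most regions this fit takes the variance from the trend over regions. With each region's own variance and no moderation, limma called 0 of the 11 (3 at an unadjusted p below 0.05) and 2 regions of the whole table.

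The called region with the smallest p was chr1:137700101-137701100, which ended 100 bp before the cocaine-specific interval of the pair on chromosome 1 described above. Its normalised read counts were 293.51, 266.96 and 294.34 in the cocaine libraries and 242.58, 250.56 and 238.22 in the saline libraries. All 3 cocaine libraries were above all 3 saline libraries. The log2 fold change was 0.22 ± 0.0572 (SE, limma, adjusted p = 0.00229). The locus thus held a higher H3K27ac region next to its intervals, and a higher and a lower 5hmC region within 5000 bp.

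On chromosome 16 the region chr16:21245901-21247700 was lower after cocaine, 300 bp from the saline-specific interval chr16:21248001-21248400. It held 543.85, 560.62 and 570.09 in cocaine and 615.63, 614.83 and 642.21 in saline, with no overlap between groups. The log2 fold change was -0.16 ± 0.0440 (SE, limma, adjusted p = 0.00486). Without the first cocaine library, the adjusted p from limma was 0.0637.

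The third called region, chr13:44769001-44770000, contained the cocaine-specific interval chr13:44769401-44769800 and touched its saline-specific neighbour chr13:44768801-44769000. It held 193.75, 207.64 and 199.48 in cocaine and 173.27, 161.9 and 194.31 in saline, and the groups overlapped by a single library of each. Its log2 fold change was 0.19 ± 0.0660 (SE, limma, adjusted p = 0.0423). Its level was at percentile 0.0986 of the table. With cyclic loess scaling the log2 fold change fell to 0.12 and the adjusted p from limma was 0.214. Leaving out any one library except the third saline library took its adjusted p from limma above the threshold, to between 0.0758 and 0.251.

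The other 8 regions did not pass the test. Their log2 fold changes ran from -0.11 to 0.05, with adjusted p from limma of 0.0952 to 0.739. At chr4:97987801-97989600 and chr7:86865501-86867300 all cocaine libraries were below all saline libraries, with adjusted p from limma of 0.131 and 0.0952. Separate groups were thus not particular to the called regions, and their share over the whole table is not given here. At chr6:91929101-91930100, which contained both intervals of the touching pair chr6:91929601-91929800 and chr6:91929801-91930000, the cocaine libraries held 341.47, 333.21 and 358.87 and the saline libraries 351.64, 335.36 and 332.63. The groups were interleaved, with a log2 fold change of 0.02 ± 0.0516 (SE, limma).

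**Figure D4:**
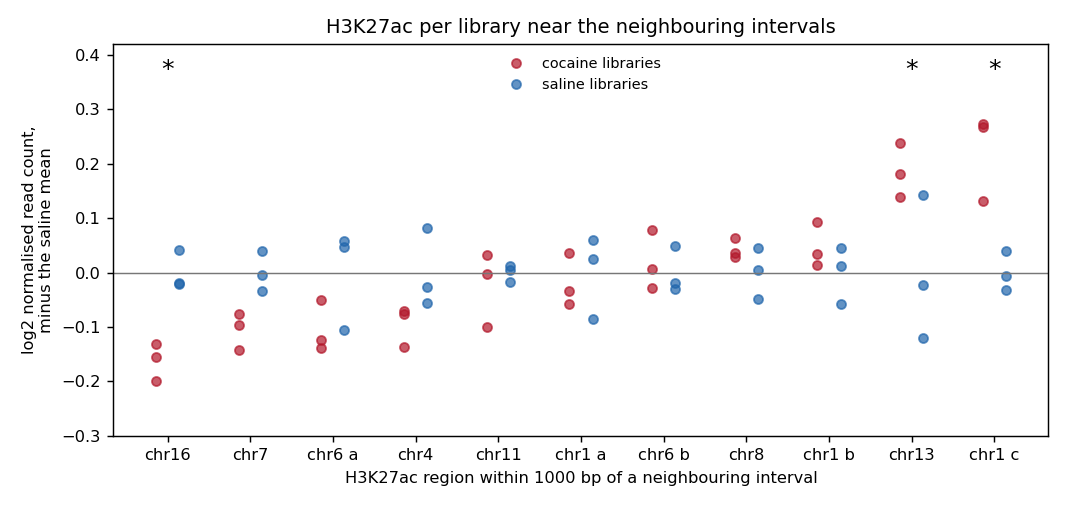
H3K27ac of each library as log2 normalised read count minus the mean of the 3 saline libraries (vertical axis) in the 11 regions within 1000 bp of a neighbouring interval (horizontal axis), ordered by log2 fold change. Stars mark the 3 regions called by limma. At the called regions on chromosomes 16 and 1 the groups are apart, and at the one on chromosome 13 they overlap. The groups are also apart at the regions on chromosomes 4 and 7, which were not called.

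These regions were of modest level. Their median was 361 normalised counts, beside 514 over the table, and they ran from percentile 0.0986 to 66.8 of it. Signal over the input library of the same treatment, as the authors' ratio, was 1.81 to 4.65 in these regions, beside table medians of 4 in cocaine and 4.03 in saline. Summed over the 11 regions, the share of the table's normalised counts was 146 ± 2.20 per 1000000 in the cocaine libraries and 147 ± 2.08 in the saline libraries (SD, n = 3 each). The difference, -0.168 per 1000000, was smaller than the spread between libraries.

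Called regions within 5000 bp were lower after cocaine about as often as called regions of the whole table in the reported fit, and more often with cyclic loess scaling. Of 67 regions within 5000 bp, limma called 16 (23.9%), 4 higher (5.97%) and 12 lower (17.9%), where the whole table had 13.0% called, 3.42% higher and 9.62% lower. Lower regions were thus 75% of those called here and 73.8% of all those called, or 80% and 63.3% with cyclic loess scaling. Between 1000 and 5000 bp it called 13 of 56, 2 higher and 11 lower. Near the other cocaine-specific intervals 13.1% of the regions within 5000 bp were called, and near the other saline-specific ones 14.3%, with 191 of 278 and 186 of 272 called regions lower. This difference in share was not tested. With each region's own variance 0 of the 67 were called. With cyclic loess scaling 20 of the 67 were called, 4 higher and 16 lower. Over all 49712 regions it called 7449, beside 6479 in the reported fit. Without the first cocaine library 7 of the 67 were called, and without the second 10. Calls over all regions fell in these fits too, to 3082 and 3055. The lower counts therefore cannot be read as particular to the 67 regions.

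The smallest p within 5000 bp was at chr14:73541801-73544700, 2900 bp from a saline-specific interval. It held 1490.57, 1427.74 and 1490.26 in cocaine and 1675.66, 1588.16 and 1755.39 in saline, without overlap between groups. The log2 fold change was -0.19 ± 0.0363 (SE, limma, adjusted p = 1.92e-05). At the locus on chromosome 9 with saline-specific intervals on both sides, the region chr9:48792501-48794500, 3900 bp from the nearest of them, held 1125.12, 1141.01 and 1192.99 in cocaine and 1299.55, 1214.25 and 1389.82 in saline. It was lower after cocaine as well, with a log2 fold change of -0.17 ± 0.0380 (SE, limma, adjusted p = 0.000226).

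**Figure D5:**
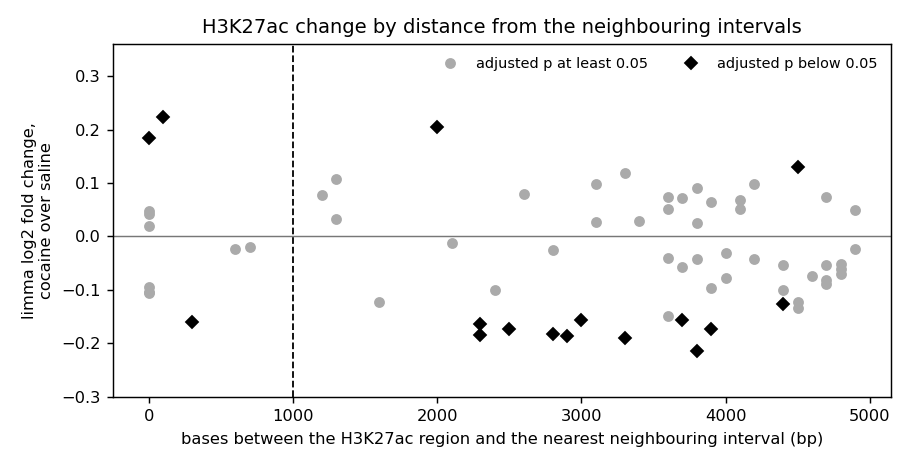
Log2 fold change of H3K27ac, cocaine over saline, from limma (vertical axis) in the 67 listed regions within 5000 bp, by the bases in bp between the region and the nearest neighbouring interval (horizontal axis). Diamonds mark the 16 regions with an adjusted p below 0.05; right of the dashed line at 1000 bp, 11 of the 13 called regions are lower after cocaine, beside 73.8% of the called regions of the whole table.

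Listed regions of both marks met at 1 pair only. Both tables list chosen regions, so this does not show that the marks were absent together elsewhere. The cocaine-specific and saline-specific intervals chr1:182156601-182156800 and chr1:182157201-182157400 both overlapped the H3K27ac region chr1:182155701-182157300, and the lower 5hmC region with the most reads began at the base after its end, at 182157301. H3K27ac there was 491.1, 484.48 and 511.42 in the cocaine libraries and 460.7, 483.77 and 495.11 in the saline libraries. The groups overlapped, and the log2 fold change was 0.05 ± 0.0458 (SE, limma, adjusted p = 0.503). At this pair, then, 5hmC on the saline-specific interval was listed as lower after cocaine while the change in H3K27ac did not pass the test.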

How the data were processed

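Libraries were grouped by the source and treatment labels, 3 cocaine and 3 saline per mark; 1 library labelled both as cerebellum and as nucleus accumbens entered no comparison. The submitters' processing notes name mm9 and Bowtie 0.12.9, a read aligner. The H3K27ac table came from diffReps 1.54 with windows of 1000 bp moved by 100 bp, a p-value cutoff of 0.0001 and a deviation cutoff of 2, per the file headers. Limma called 13.0% of its 49712 regions, so the listed H3K27ac regions were not confined to ones that differed between treatments by that test. How far their choice depended on a group difference was not tested. No source used here names the caller of the 5hmC table. Both deposited tables give, per region, the normalised read count of each library, each group's mean as the signal, the ratio of that signal to a background library, the authors' log2 fold change and the authors' p-value with its adjusted value. The deposited interval lists hold positions only, on a 200 bp grid, and were taken as mm9. Both tables list only regions that passed a caller.

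Members and lists were chosen with earlier results of these data known. Intervals were paired where start minus end was at most 1000, and regions were linked to members within 1000 bp. The H3K27ac values of the whole table were transformed to log2(value + 1) and tested with limma 3.58.1 (R 4.3.3), with a trend, robust moderation and Benjamini-Hochberg adjustment at 0.05, after a check on simulated data. Fold changes on that scale understate those of low regions. The simulation gave every region the same spread beyond counting noise, so it cannot show whether pooling the variance over regions suits these data. 5hmC was not tested, because its table lists regions already chosen for a difference in these libraries. Regions named were every pair overlapped by a listed 5hmC region, the H3K27ac regions called within 1000 bp, and the loci with the most chained intervals. Other regions, such as the longest intervals and those within 5000 bp, were chosen after their values were seen. In 5hmC, 100% of the low nonzero values, from which the size of a read was found, were whole reads within 0.1 read. Higher counts were not checked. The mean H3K27ac count per 1000 bp bin was 40.08 to 47.77 per library, per the file headers. Alternatives were other distances, thresholds, pseudocounts, filters, scalings and variances, and leaving out each library. Python 3.11.15, numpy 2.4.6, pandas 2.3.3 and matplotlib 3.10.9 were used.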

Additional observations from a re-analysis of the deposited data

How the results depend on the processing

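The 386 pairs became 236 with intervals within 500 bp, 797 within 2000 bp and 472 with gaps of 1000 bp included, a setting chosen after seeing the data. The 18 listed 5hmC regions became 10 on overlap, 48 within 5000 bp, 8 with intervals within 500 bp, 45 within 2000 bp and 23 with gaps of 1000 bp included. The count of 9 higher 5hmC regions was 9 on leaving out each library, which the selection fixes, since the groups do not overlap in any of the 18, and says nothing of stability. The 3 called H3K27ac regions became 1 on overlap, 16 within 5000 bp, 1 with intervals within 500 bp and 0 with each region's own variance (3 at an unadjusted p below 0.05, beside 5 with moderation). With cyclic loess it was 2, while calls over all 49712 regions went from 6479 to 7449. Leaving out 1 library gave 1 to 3, the lowest without cocaine replicate 1. Calls over all regions fell to 3082 in that fit, so its low count cannot be read as particular to these regions. Over the fits that left out a library, calls over all regions ran from 3055 to 6918. The summed H3K27ac difference of -0.168 per 1000000 table counts was 0.232 on overlap and -22.2 within 5000 bp. At that distance the share was 1248 ± 8.86 per 1000000 in the cocaine and 1270 ± 10.1 in the saline libraries (SD, n = 3 each). Every cocaine library was below every saline library there, unlike within 1000 bp, and this was not tested. Of 110 alternatives for single H3K27ac regions, 96 kept direction and side of the threshold, 10 lost the call and 4 turned sign, all in regions that had not passed the test. On chromosome 1 from 166260501 the log2 fold change of -0.02 ran from -0.0619 to 0.0113 on leaving out a library, and was 0.00071 without cocaine replicate 1 and 0.0113 without saline replicate 1. On chromosome 6 from 91929101 it went from 0.02 to -0.0105 without cocaine replicate 3 (range -0.0105 to 0.0439), and on chromosome 11 from 99886001 from -0.02 to 0.0150 without cocaine replicate 1 (range -0.0513 to 0.0150). The cause was not tested. Fits that left out a library kept 2 in a group. The planned count tests with edgeR and DESeq2 were not run. Depth limits the 5hmC values, at a median of 5 to 7 reads per region and library. No paired analysis was possible because the labels give no replicate numbers; those used here only name libraries and tie them to no animal or batch.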
